A study of Macaca mulatta with 6 samples.

Results

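The cytosolic ribosome is built from ribosomal RNA and a fixed set of ribosomal proteins, whose genes were followed here in RF/6A cells. RF/6A is a rhesus macaque line labelled as choroidal endothelial. A gene was a member when its symbol in the deposited table was RPSA, RPLP0, RPLP1 or RPLP2, or RPL or RPS followed by a number with the usual suffixes, S6 kinases left out. The FPKM of its transcripts (fragment numbers corrected for how long a transcript is and how deeply a library was sequenced) were summed in each library. This gave 75 genes with 140 transcripts, of 24941 symbols with 44605 transcripts in the whole table. Of the 75, 64 had a mean of at least 1 FPKM over the 6 libraries and were tested, 5 were above 0 but below that level, and 6 were listed at 0 in every library.

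A ribosome has a small subunit, which reads the mRNA, and a large subunit, which joins the amino acids. A lateral stalk on the large subunit, made of the proteins RPLP0, RPLP1 and RPLP2, recruits the elongation factors. Mammalian ribosomal protein mRNAs begin with a terminal oligopyrimidine (TOP) tract, through which their translation, more than their amount, is tuned by mTORC1 signalling and by the RNA-binding protein LARP1. Several members have a paralogue elsewhere in the genome, such as RPS27L beside RPS27, and when the making of ribosomes is disturbed, free RPL5 and RPL11 are known to bind MDM2 and stabilise p53.

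The cells were grown to confluence on porous culture inserts. The treated group, which the labels call MAC, received 50% normal human serum for 4 hours, and the control group received 50% heat-inactivated human serum for 4 hours. There were 3 libraries of polyadenylated RNA in each group, 6 in all. Complement that is still active in normal serum ends in the membrane attack complex, which forms pores in the membranes it attacks. Heating destroys complement and alters other serum components too, and no group had complement removed in another way, so these cannot be told apart. The labels do not say whether replicates were separate cultures, and the spread behind each p-value is that of 3 libraries a group, which could be technical only.

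Summed FPKM over the whole table was 980877 to 1016474 in normal serum and 852828 to 1007949 in heat-inactivated serum. The lowest values of single-transcript genes of about 1000 bases were whole multiples of 0.0694 to 0.0836 FPKM in replicates 2 and 3 of both groups, within 0.1 fragments for 100% of low values, so 1 fragment is worth that much there. In the replicate 1 libraries 35.0% (normal serum) and 30.0% (heat-inactivated serum) of low values were whole, and their depth was not read. Of 10 endothelial markers 4 reached a mean of 1 FPKM, all 4 of them called higher, with a summed level of 97.8 to 104 FPKM in normal serum and 73.6 to 75.7 FPKM in heat-inactivated serum. PECAM1 averaged 7.95 ± 0.634 FPKM in normal serum and 3.35 ± 0.288 FPKM in heat-inactivated serum (SD, n = 3 each). CDH5, KDR and TIE1, which define endothelium, were at or near 0 in both groups, at most 0.392 FPKM in any library. KDR averaged 0.105 FPKM in normal serum and 0.370 FPKM in heat-inactivated serum. It was lower in each normal serum library, at a level too low to be tested. Of 9 fibroblast and mural markers found, 8 were called lower and 1 higher, and their summed level was 3201 to 3340 FPKM in normal serum and 6717 to 7267 FPKM in heat-inactivated serum. The epithelial sum was 2.40 to 2.96 FPKM in normal serum and 5.22 to 6.28 FPKM in heat-inactivated serum, and the leukocyte sum was 9.14 to 10.7 FPKM in normal serum and 8.10 to 10.1 FPKM in heat-inactivated serum. In such bulk RNA fewer cells of a type and less RNA per cell cannot be told apart, and the part of these shifts in the ribosomal protein results was not tested.

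Most ribosomal protein genes were abundant, with a median of 2439 FPKM over the tested members against 13.9 FPKM over all genes tested. Of the 64 tested members, 47 averaged 1000 FPKM or more, 8 lay between 100 and 1000 FPKM, and 9 between 1 and 100 FPKM. RPLP1, a stalk protein, had the highest level, with 9306, 7903 and 7325 FPKM in the normal serum libraries and 7509, 6451 and 6361 FPKM in the heat-inactivated serum libraries. RPL38, a small protein of the large subunit, had 5057, 5629 and 5650 FPKM in normal serum and 4458, 4902 and 5340 FPKM in heat-inactivated serum. The groups overlapped for both genes, and neither passed the test (adjusted p = 0.0709 for RPLP1 and 0.17 for RPL38).

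**Figure D1:**
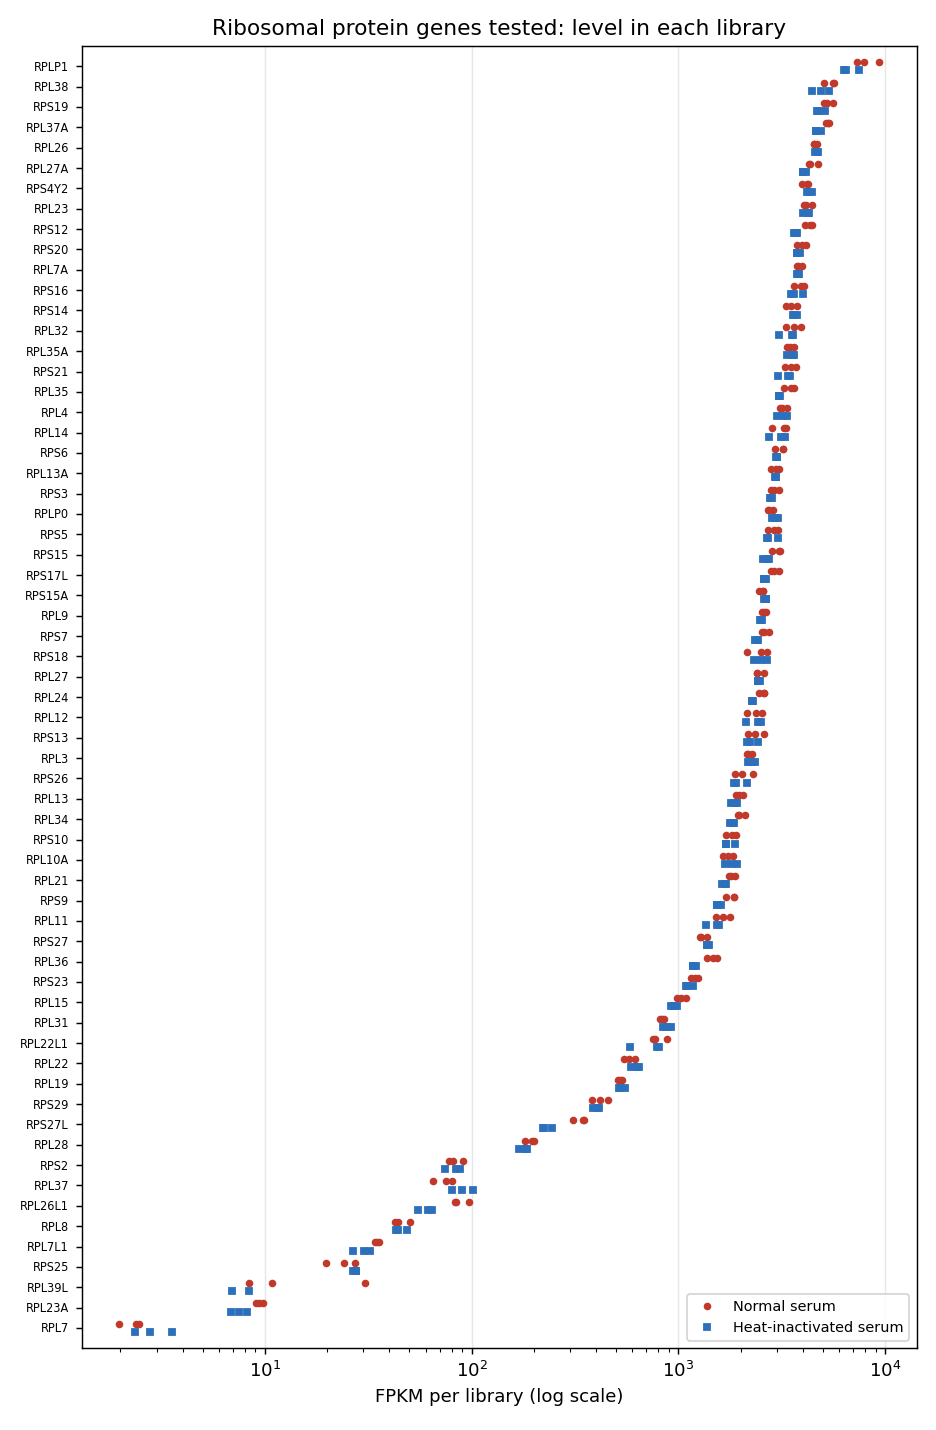
Level of 63 of the 64 tested ribosomal protein genes in FPKM (log axis), 1 point per library, red circles for the 3 normal serum libraries and blue squares for the 3 heat-inactivated serum libraries, ordered by mean level. The value of 0 FPKM of RPL39L in heat-inactivated serum replicate 3 cannot be drawn on the log axis. Most genes lie above 1000 FPKM with both groups close together, and RPS27L, RPL26L1 and RPL36 show a visible gap.

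Summed over all 75 members, the level was 153538, 159130 and 149062 FPKM in normal serum and 144351, 145489 and 147643 FPKM in heat-inactivated serum, a ratio of means of 1.06. Each normal serum library was higher. As a share of each library's summed FPKM the members took 15.2%, 15.7% and 15.2% in normal serum and 16.9%, 16.8% and 14.6% in heat-inactivated serum. Transcripts under 300 bases, whose FPKM are erratic, were then left out of both the members' sum and the total. The share was then 16.5%, 17.0% and 16.7% in normal serum and 17.8%, 17.8% and 18.1% in heat-inactivated serum, lower in each normal serum library. The share of the whole total overlapped, with heat-inactivated serum replicate 3 below each normal serum library. That library had 1007949 FPKM in all and 776565 FPKM in transcripts of 300 bases or more, against 852828 and 775915 FPKM in heat-inactivated serum replicate 1. The sum and the share without short transcripts lay on opposite sides of heat-inactivated serum. The direction of a change common to all members thus depended on the scaling of the libraries.

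The comparison asks which genes differ between cells in normal serum and cells in heat-inactivated serum. With the deposited scaling, 9 of the 64 tested members were called higher in normal serum (14.1%) and 0 lower, at an adjusted p under 0.05 in limma's moderated test of log2(FPKM + 1), Benjamini-Hochberg adjusted over all 11819 genes tested. At an unadjusted p under 0.05 limma gave 13 members higher and 1 lower (RPL37). Every gene with an adjusted p under 0.05 also passes that looser mark. At least 27.8% of all genes were thus higher there and at least 26.1% lower. Over all genes 54.0% were called, 27.8% higher and 26.1% lower, so the members' share of rises was below the background share. The 9 were RPS27L, RPL26L1, RPL36, RPS12, RPL23A, RPS9, RPL24, RPL7L1 and RPS15, with ratios of mean FPKM of 1.12 to 1.46, and in each of the 9 every normal serum library was above every heat-inactivated serum library. The groups were separate and higher for 19 members and separate and lower for 2, RPS15A and RPS27, while 43 overlapped. Of all genes tested, 32.1% were separate and higher and 30.5% separate and lower. At an adjusted p under 0.01, 3 members were called higher (19.8% of all genes tested) and 0 lower (17.4% of all genes tested). With replicates 2 and 3 alone, which leaves out the libraries without whole steps, 3 were called higher (25.3% of all genes) and 0 lower (21.6% of all genes), namely RPS27L, RPL26L1 and RPL36.

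The changes were small in size. The log2 change was between -0.29 and 0.29 for all tested members that are not paralogues, and 95.3% of the 64 changed by less than 0.322 in size (1.25-fold), as did 51.2% of all genes tested. Of the 55 members not called, the 95% interval of the change lay within 1.25-fold for 47 and within 1.5-fold for 54, the exception being RPL39L. Among members at 1000 FPKM or more the ratio of means ran between 0.946 and 1.23. The coefficient of variation between replicates had a median of 5.21% in normal serum and 3.76% in heat-inactivated serum.

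The median log2 change of the 64 was 0.06 as deposited, -0.08 with each library set to an equal total FPKM, -0.11 when that total left out transcripts under 300 bases, and -0.10 after quantile normalization, so the side of 0 on which the members lay depended on the scaling. The median of all genes was 0.01 as deposited and shifted to -0.12, -0.14 and -0.02 under the same 3 scalings. Relative to it, the members' median was 0.05 higher as deposited, 0.04 higher under both rescalings, and 0.08 lower under quantile normalization. It was 0.0033 higher when only genes averaging 5 FPKM or more were tested, and 0.02 lower with the length trend removed. The count of members called higher and lower was 9 and 0 as deposited. It was 2 and 1 at equal total FPKM, where 16.5% of all genes were called higher and 31.0% lower. At equal total FPKM of longer transcripts it was 2 and 18, beside 18.2% and 37.1% of all genes, and after quantile normalization 3 and 15, beside 24.3% and 27.1% of all genes. Median-ratio scaling gave 9 and 0 again, beside 27.3% and 26.8% of all genes called higher and lower. Over all genes 3291 were called higher and 3090 lower as deposited, 1949 higher and 3672 lower at equal total FPKM, and 2159 higher and 4389 lower at equal total FPKM of longer transcripts. Across these scalings, median-ratio scaling and removal of the trend with transcript length (6 in all), 8 members had a positive change under each and 18 a negative change under each, and the sign of the other 38 differed between them. The 8 were RPS27L, RPL26L1, RPL39L, RPL23A, RPL36, RPL7L1, RPS12 and RPS15. The 18 were all the members below 0 as deposited, and each other scaling lowered the members' median. The split of 8 against 18 thus follows the direction of the rescalings and does not show that falls were steadier than rises. The same counts over all genes are not given here.

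**Figure D2:**
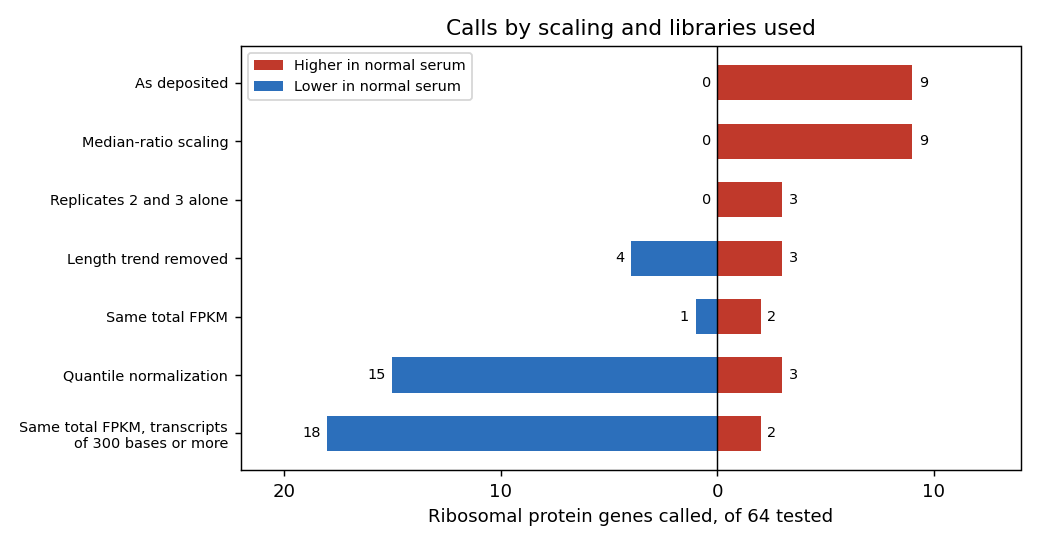
Number of the 64 tested ribosomal protein genes called higher in normal serum (red, right of 0) and lower in normal serum (blue, left of 0) as deposited, under 5 other scalings, and with replicates 2 and 3 alone. As deposited 9 were higher and 0 lower, against 2 higher and 18 lower at equal total FPKM of transcripts of 300 bases or more.

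In the small subunit 25 members other than paralogues were tested, with a median log2 change of 0.06 as deposited (-0.08 at equal total FPKM). Of these 3 were called higher and 0 lower, beside 27.8% higher and 26.1% lower over all genes. RPS12 lies near the beak of the subunit and had 4320, 4434 and 4119 FPKM in normal serum and 3635, 3745 and 3700 FPKM in heat-inactivated serum. Its change was 0.22 (log2, SE 0.06, adjusted p = 0.0167), and all normal serum libraries were higher. RPS9, an early-binding protein that contacts the mRNA entry region, had 1853, 1857 and 1697 FPKM in normal serum and 1533, 1536 and 1612 FPKM in heat-inactivated serum. Its groups were separate, with a change of 0.21 (SE 0.06, adjusted p = 0.0249), but the sign turned to -0.01 under quantile normalization. RPS15, which is needed for export of the small subunit from the nucleus, had 3072, 3118 and 2855 FPKM in normal serum and 2560, 2677 and 2749 FPKM in heat-inactivated serum. The change of RPS15 was 0.18 (SE 0.06, adjusted p = 0.046). Its call was lost under 15 of 22 alternatives, and the calls of RPS12 and RPS9 under 11 and 10 of them, reversals included. With both replicate 1 libraries left out none of RPS12, RPS9 and RPS15 was called.

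Other small-subunit members did not pass the test. RPS6, the substrate of the S6 kinases, averaged 3120 ± 154 FPKM in normal serum and 2980 ± 21.6 FPKM in heat-inactivated serum (SD, n = 3 each), a log2 change of 0.06 with a 95% interval of -0.08 to 0.21. RPS27, a zinc-finger protein of the small subunit, had 1295, 1374 and 1281 FPKM in normal serum and 1415, 1383 and 1378 FPKM in heat-inactivated serum. Each normal serum library was lower, by little, and the change of -0.08 did not pass (adjusted p = 0.256). RPS25, a protein that viral internal ribosome entry sites require, had 19.8, 24.2 and 27.2 FPKM in normal serum and 26.6, 27.7 and 27.7 FPKM in heat-inactivated serum, with overlapping groups (log2 change -0.21, adjusted p = 0.148). Those RPS25 values cover part of the gene's RNA only, since a placeholder identifier named RPS25 in the gene-name table averaged 2312 ± 205 FPKM in normal serum and 2085 ± 195 FPKM in heat-inactivated serum. The symbol RPS4Y2, the name of a Y-linked gene in human, stood on chromosome X in the table, so which RPS4 gene its values belong to is uncertain. It averaged 4128 ± 137 FPKM in normal serum and 4300 ± 112 FPKM in heat-inactivated serum, overlapping (log2 change -0.06, adjusted p = 0.426).

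In the large subunit 34 members other than paralogues were tested, with a median log2 change of 0.03 as deposited (-0.11 at equal total FPKM). Of these 3 were called higher and 0 lower, beside 27.8% higher and 26.1% lower over all genes. RPL36 had 1533, 1473 and 1374 FPKM in normal serum and 1182, 1175 and 1213 FPKM in heat-inactivated serum, with separate groups and the smallest adjusted p among members at 1000 FPKM or more. It rose by 0.29 on the log2 scale (SE 0.06, adjusted p = 0.00547, 1.23-fold), held with both replicate 1 libraries left out, and lost its call at equal total FPKM (0.15), at equal total FPKM of longer transcripts (0.12) and after quantile normalization (0.02). RPL24, a bridge to the small subunit, had 2600, 2596 and 2461 FPKM in normal serum and 2271, 2272 and 2291 FPKM in heat-inactivated serum. That was a separate 0.16 change (SE 0.06, adjusted p = 0.0385), whose sign turned to -0.01 at equal total FPKM of longer transcripts. The call of RPL24 was lost under 13 of 22 alternatives, reversals included. RPL23A, which lies at the exit of the peptide tunnel, was low, with 9.03, 9.84 and 9.33 FPKM in normal serum and 7.52, 6.89 and 8.17 FPKM in heat-inactivated serum. Its change was 0.29 (SE 0.08, adjusted p = 0.0199), at a level far under the members' median, and its call was lost under 7 of 22 alternatives, replicates 2 and 3 alone among them (adjusted p = 0.056).

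RPL11, the p53-linked protein, had 1521, 1772 and 1642 FPKM in normal serum and 1362, 1531 and 1571 FPKM in heat-inactivated serum. The groups overlapped and the change of 0.14 did not pass (95% interval -0.05 to 0.34, adjusted p = 0.179). Its partner RPL5 was read under a placeholder identifier that the gene-name table names RPL5, with 991, 1057 and 999 FPKM in normal serum and 989, 943 and 979 FPKM in heat-inactivated serum. All normal serum values were higher by little, and the change of 0.07 did not pass (adjusted p = 0.353).

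RPL37 had the lowest log2 change of (FPKM + 1) among tested members, with 80.5, 75.7 and 64.9 FPKM in normal serum and 102, 80.4 and 89.6 FPKM in heat-inactivated serum. Its groups touched at their edges, and the change of -0.29 just missed the threshold (adjusted p = 0.0552). It was called lower under 10 of 21 alternatives. RPL7 was next, with 2.39, 1.98 and 2.47 FPKM in normal serum and 2.35, 3.55 and 2.78 FPKM in heat-inactivated serum, and overlapped (-0.24, adjusted p = 0.183). Its ratio of mean FPKM, 0.789, was below that of RPL37, 0.812. Most RNA of RPL7 stood elsewhere, under the placeholder identifier named RPL7, which averaged 1970 ± 118 FPKM in normal serum and 1923 ± 94.5 FPKM in heat-inactivated serum (SD, n = 3 each; log2 change 0.03, adjusted p = 0.702). Just inside the threshold stood RPS15, RPL7L1 (adjusted p = 0.0404) and RPL24, and just outside it RPL37A (0.16, adjusted p = 0.0501), RPS17L (0.16, adjusted p = 0.0525), RPL37 and RPL35 (0.16, adjusted p = 0.064).

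The stalk proteins differed among themselves in sign. RPLP1, whose values are given above, changed by 0.27 without passing the test (SE 0.11, adjusted p = 0.0709), and by -0.13 at the lowest of the alternatives. RPLP0, the stalk's base, had 2707, 2880 and 2760 FPKM in normal serum and 2847, 2943 and 3037 FPKM in heat-inactivated serum, an overlapping -0.08 change (adjusted p = 0.281). RPLP2 was listed at 0 by symbol, and a placeholder identifier described as acidic protein P2 had 1080, 1054 and 1157 FPKM in normal serum and 1070, 1097 and 1138 FPKM in heat-inactivated serum, with a change of -0.01 (adjusted p = 0.933). Within a library, where scaling cancels, RPLP1 stood at 3.44, 2.74 and 2.65 times RPLP0 in normal serum and at 2.64, 2.19 and 2.09 times RPLP0 in heat-inactivated serum. The ratio was higher in each normal serum library (p = 0.1 in a two-sided exact permutation test, the smallest p that 3 against 3 libraries allow, and 0.14 adjusted over 7 ratios). Over the P2 identifier the ratio of RPLP1 was 8.62, 7.50 and 6.33 in normal serum and 7.02, 5.88 and 5.59 in heat-inactivated serum, which overlapped (exact permutation p = 0.2, 0.2 adjusted).

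**Figure D3:**
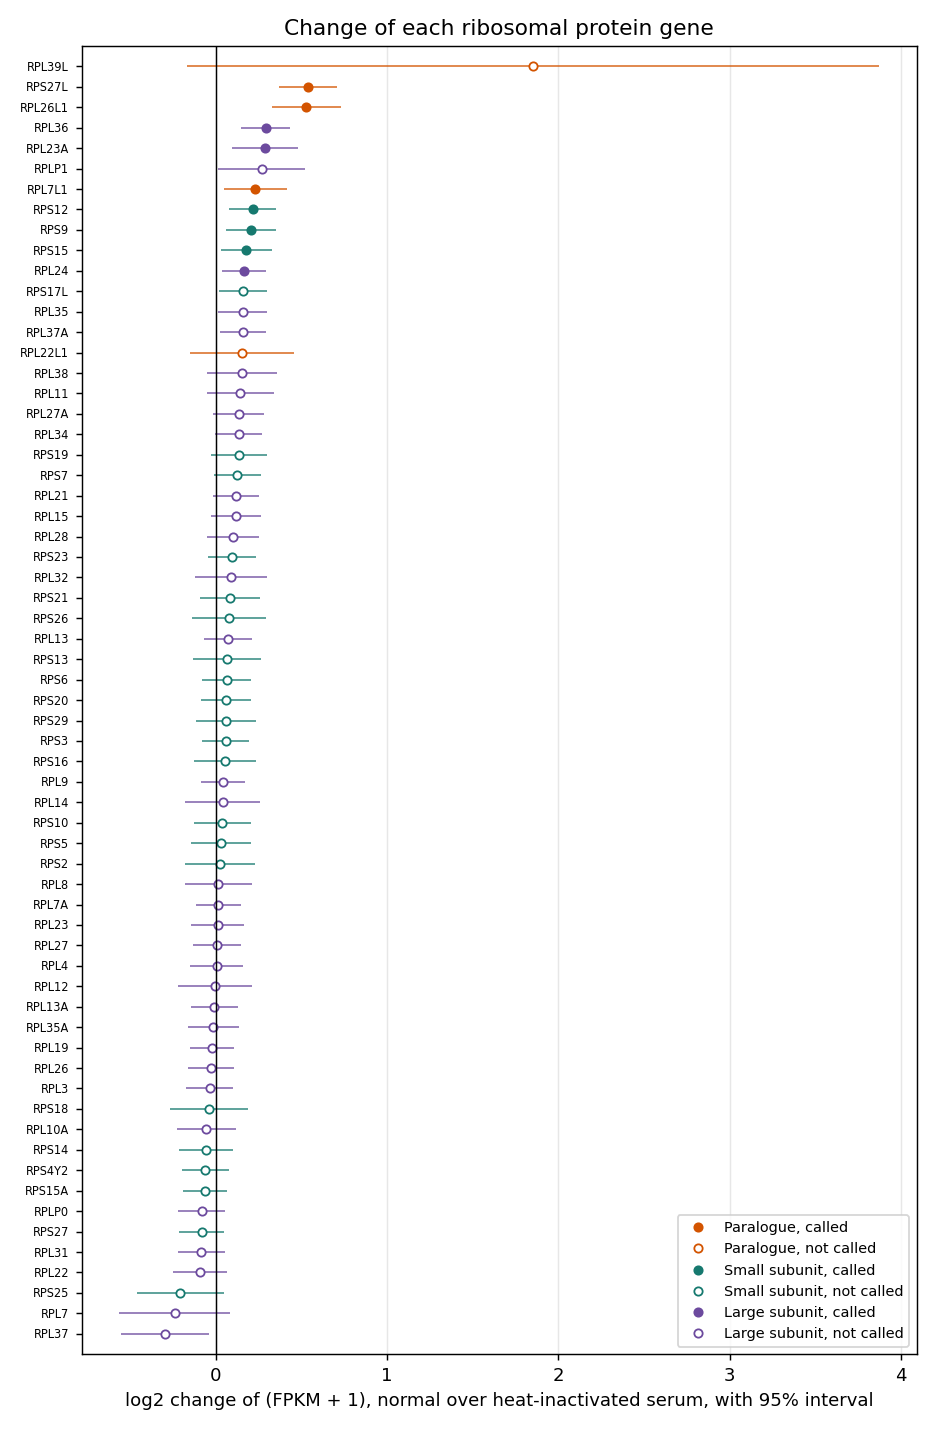
log2 change of (FPKM + 1), normal serum over heat-inactivated serum, with its 95% interval from limma, for 63 of the 64 tested ribosomal protein genes; filled points are called at an adjusted p under 0.05, and colours mark paralogues, small-subunit and large-subunit genes. RPS27L and RPL26L1 stand at 0.54 and 0.53, RPL39L at 1.85 has an interval that reaches 0, and all genes shown that are not paralogues lie between -0.29 and 0.29.

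The largest changes were those of paralogues. Of 7 paralogues 5 were tested, and 3 of them were called higher and 0 lower, beside 27.8% higher and 26.1% lower over all genes. With 5 genes such a share is coarse, and 2 were called higher at equal total FPKM and after quantile normalization. RPS27L, a close copy of RPS27 and a known p53 target gene, had 346, 351 and 311 FPKM in normal serum and 223, 222 and 246 FPKM in heat-inactivated serum. Every normal serum library was higher, and the rise was 1.46-fold (log2 0.54, SE 0.07, adjusted p = 6.87e-04). RPL26L1, a paralogue of RPL26, had 83.8, 96.9 and 82.7 FPKM in normal serum and 55.3, 61.4 and 64.6 FPKM in heat-inactivated serum. It too was separate and rose 1.45-fold (log2 0.53, SE 0.09, adjusted p = 0.00181). RPS27L and RPL26L1 were the 2 members called under all 22 alternatives, with log2 changes of 0.25 to 0.59 for RPS27L and 0.34 to 0.58 for RPL26L1. In the table RPS27L stood on chromosome 7 with a main transcript of 497 bases, and RPL26L1 on chromosome 6 with 1 transcript of 702 bases.

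RPL7L1, a nucleolar relative of RPL7, had 34.3, 35.7 and 34.9 FPKM in normal serum and 26.7, 32.4 and 30.2 FPKM in heat-inactivated serum. It was called by a small margin (log2 0.23, SE 0.08, adjusted p = 0.0404) and lost its call under 13 of 22 alternatives. A second identifier named RPL7L1 averaged 39.8 ± 1.67 FPKM in normal serum and 35.5 ± 1.00 FPKM in heat-inactivated serum (SD, n = 3 each) and did not pass (0.16, adjusted p = 0.0564). RPL22L1, a paralogue of RPL22, had 755, 885 and 769 FPKM in normal serum and 586, 788 and 805 FPKM in heat-inactivated serum, with overlapping groups (0.16, adjusted p = 0.345). RPL39L, best known from the testis, had 10.8, 8.43 and 30.5 FPKM in normal serum and 8.41, 6.95 and 0 FPKM in heat-inactivated serum. Its transcript has 156 bases, the shortest among tested members, and its change of 1.85 rested on 1 high library and 1 library at 0, with a 95% interval of -0.17 to 3.87 (adjusted p = 0.107). RPL3L, known from striated muscle, reached at most 0.0709 FPKM in any library, and RPL10L, also known from the testis, was listed at 0.

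Set against the canonical gene in the same library, RPS27L stood at 0.267, 0.256 and 0.243 of RPS27 in normal serum and at 0.158, 0.161 and 0.179 in heat-inactivated serum. The RPS27L share was thus 1.54-fold higher on average and higher in each normal serum library. RPL26L1 stood at 0.0191 ± 0.00127 of RPL26 in normal serum and 0.0129 ± 8.33e-04 in heat-inactivated serum (SD, n = 3 each), a 1.48-fold difference with separate groups. RPL22L1 was the paralogue whose level was like that of its partner, at 1.38, 1.43 and 1.33 times RPL22 in normal serum and 0.998, 1.25 and 1.25 times RPL22 in heat-inactivated serum. Those groups were separate as well, by 1.18-fold, although RPL22L1 alone overlapped. RPL7L1 stood at 0.0178 ± 7.08e-04 of the identifier named RPL7 in normal serum and 0.0155 ± 0.00109 in heat-inactivated serum, 1.15-fold and separate. RPL39L over the identifier described as L39 overlapped, with an exact permutation p of 0.2. Each of the 4 separate paralogue ratios had p = 0.1 in the two-sided exact permutation test, the smallest it can give, and 0.14 adjusted over the 7 ratios. Sequences of the paralogues and their partners were not compared here. How far the division of fragments between similar copies, such as RPS27L and RPS27, depends on the authors' assignment was not tested.

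**Figure D4:**
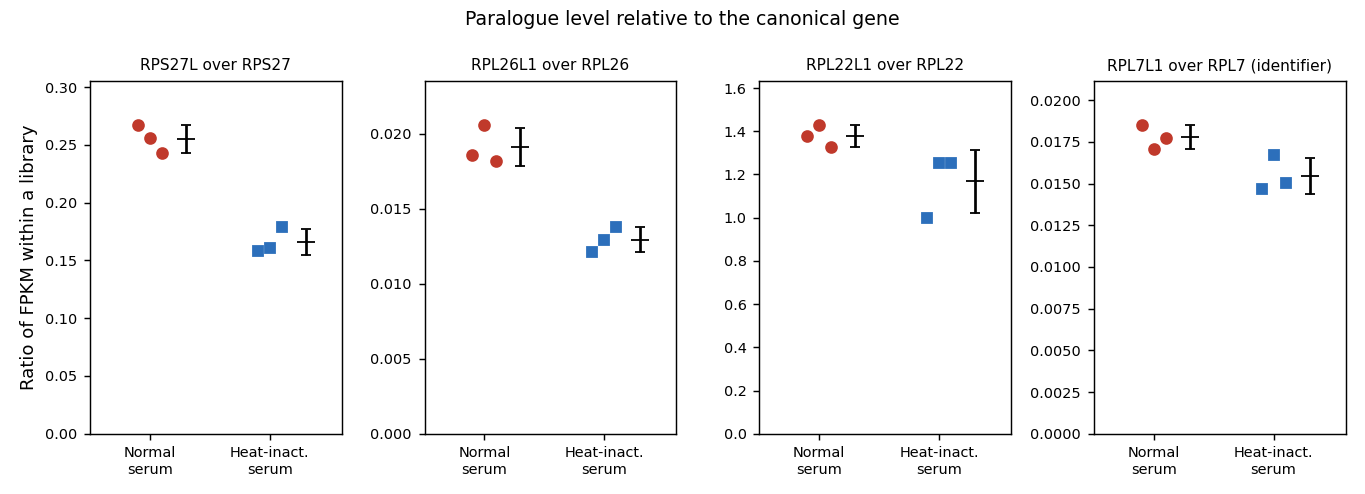
FPKM of 4 paralogues divided by the FPKM of the canonical gene in the same library, red circles for normal serum and blue squares for heat-inactivated serum, with the mean and SD of 3 libraries in black, on axes that start at 0. RPS27L averaged 0.255 of RPS27 in normal serum and 0.166 in heat-inactivated serum, and no panel shows overlap between the groups.

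Much of the RNA of some members stood outside their symbols. Of the 75 members, 6 were listed at 0, among them RPL10L, RPL29, RPLP2, RPS24 and RPS28, and 5 were above 0 under 1 FPKM, among them RPL17, RPL30, RPL3L and RPS3A. Among placeholder symbols (an identifier in place of a gene name), 44 were ribosomal proteins, 14 by the gene-name table and 30 by the description in the deposited table. Of 13 members under 10 FPKM, 9 had such a counterpart at 100 FPKM or more, which averaged 4802 FPKM for RPS24. The counterparts of RPS28, RPL30 and RPL29 averaged 3395, 3027 and 1402 FPKM.

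Of the 44 identifiers 27 were tested, and 1 was called higher and 1 lower, beside 27.8% higher and 26.1% lower over all genes. Their median change was 0.08 as deposited (-0.07 at equal total FPKM). The identifier named RPL30 was called lower, with 2795, 2957 and 2837 FPKM in normal serum and 3127, 3241 and 3207 FPKM in heat-inactivated serum. It was separate, by -0.16 (SE 0.06, adjusted p = 0.048). With replicates 2 and 3 alone its call was lost, with 1 of 28 identifiers called higher and 0 lower, beside 25.3% and 21.6% of all genes. The identifier named RPSA, the laminin receptor protein of the small subunit, had 2.23, 2.00 and 1.37 FPKM in normal serum and 0.860, 0.681 and 0.784 FPKM in heat-inactivated serum. It was called higher (0.68, SE 0.15, adjusted p = 0.00682) at a level far under that of other small-subunit genes. It averaged 0.775 FPKM in heat-inactivated serum and passed the minimum mean of 1 FPKM only through normal serum. Its call is therefore tied to that filter and is no support for a rise. The identifier described as L10 had 2875, 2947 and 2760 FPKM in normal serum and 3258, 3081 and 3217 FPKM in heat-inactivated serum, separate and lower without passing (-0.16, adjusted p = 0.0573). The highest identifier, described as S27a, averaged 4921 ± 377 FPKM in normal serum and 4903 ± 370 FPKM in heat-inactivated serum (SD, n = 3 each). With the 27 added to the 64, 10 of 91 were called higher and 1 lower, the RPSA identifier being 1 of the 10.

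Members also gathered copies. Of the 75 symbols 33 had 1 transcript and 42 several, and 25 had transcripts on more than 1 chromosome, so that loci of the same name were summed. In 37 of the 42 the highest transcript held over 95% of the sum, and taking that transcript alone left the 9 calls as they were. The transcripts of tested members were short, with a median of 550.5 bases for the highest one against 1812 bases over all genes tested. Across tested members the log2 change and this length had a Spearman correlation of -0.24 (n = 64 genes of the same libraries), against -0.10 across all genes tested. Removing the trend with length left RPS27L, RPL26L1 and RPL36 called higher and RPL37, RPS15A, RPS25 and RPS27 called lower, where 27.8% of all genes were called higher and 25.9% lower.

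The authors' deposited table tests each transcript with Cuffdiff, and 98 member transcripts were tested there while 42 were not. Of the 98, 11 transcripts of 9 symbols had a q-value under 0.05, and 0 passed both the authors' fold and q marks. The shares over all transcripts are not given here, so whether these counts are above or below the background cannot be read from them. The authors' deposited table gave the main RPS27L transcript a log2 fold change of 0.54 with q = 2.23e-04, and RPL26L1 0.54 with the same q. It gave RPLP1 0.27 with q = 0.012 and RPL37 -0.30 with q = 0.0226, both outside the calls of the gene sums. In the authors' deposited table RPL24, RPL23A and RPS15, called here, had q-values of 0.136, 0.131 and 0.1.

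Other genes of the ribosome and its supply were read from fixed lists in the same fit. Of ribosome parts outside the naming rule, FAU (which encodes the small-subunit protein S30) averaged 1416 ± 109 FPKM in normal serum and 1284 ± 28.4 FPKM in heat-inactivated serum, and GNB2L1 (the scaffold RACK1) 1300 ± 27.2 FPKM in normal serum and 1301 ± 67.9 FPKM in heat-inactivated serum. Neither passed the test, and RPL36AL was listed at 0.

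Ribosome biogenesis factors, which make and fold ribosomal RNA and assemble subunits, were called in a larger share than the ribosomal proteins. From 72 symbols found, 70 were tested, 56 were called higher and 2 lower (82.9% in all, beside 27.8% higher and 26.1% lower over all genes), with a median log2 change of 0.59, and between 49 and 59 were called higher under the 6 scalings. EFTUD1, a GTPase that frees the large subunit for use, averaged 78.1 ± 4.66 FPKM in normal serum and 29.2 ± 1.47 FPKM in heat-inactivated serum (SD, n = 3 each; log2 1.39, adjusted p = 9.35e-06). RRP12, a pre-ribosome export factor, averaged 35.8 ± 0.510 FPKM in normal serum and 15.03 ± 0.778 FPKM in heat-inactivated serum (1.20, adjusted p = 1.12e-05). The 2 that fell were the RNA polymerase I subunits POLR1D (-0.34, adjusted p = 0.0101) and POLR1E (-0.24, adjusted p = 0.0212). The difference between the lists themselves was not tested.

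Mitochondrial ribosomal proteins, which serve the separate ribosome of the mitochondrion, had 70 tested of 73, of which 45 were called higher and 1 lower (65.7% in all, beside 27.8% higher and 26.1% lower over all genes), with a median of 0.34. Under the 6 scalings 24 to 45 were called higher, the 24 at equal total FPKM, where 16.5% of all genes were. MRPS30 averaged 40.7 ± 1.07 FPKM in normal serum and 22.3 ± 1.10 FPKM in heat-inactivated serum (0.84, adjusted p = 5.29e-05). MRPS2 averaged 86.7 ± 5.43 FPKM in normal serum and 47.9 ± 2.04 FPKM in heat-inactivated serum (0.84, adjusted p = 7.23e-05). The 1 that fell, MRPL10, averaged 44.5 ± 1.55 FPKM in normal serum and 59.1 ± 3.61 FPKM in heat-inactivated serum (-0.40, adjusted p = 0.0018).

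**Figure D5:**
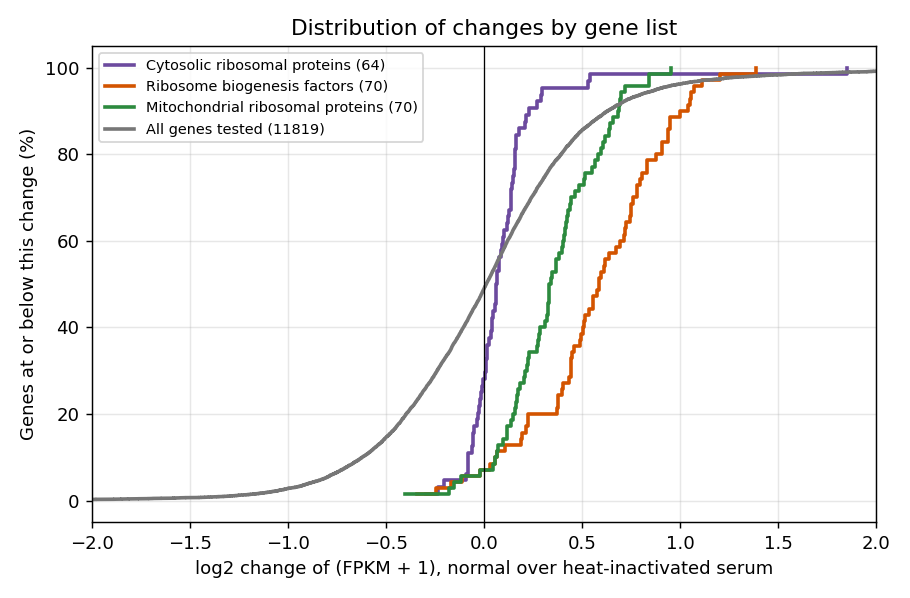
Cumulative share of genes (%) at or below each log2 change of (FPKM + 1), normal serum over heat-inactivated serum, for cytosolic ribosomal proteins (64), ribosome biogenesis factors (70), mitochondrial ribosomal proteins (70) and all genes tested (11819). The curve of the cytosolic ribosomal proteins is steep around its median of 0.06, while those of the biogenesis factors and mitochondrial ribosomal proteins lie to the right, with medians of 0.59 and 0.34.

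Chaperones and import factors of ribosomal proteins had 18 tested, 8 called higher and 1 lower (50% in all, near the 54.0% over all genes, of which 27.8% higher and 26.1% lower), with a median of 0.13 as deposited that turned to -0.01 and -0.04 at equal total FPKM of all and of longer transcripts. GRWD1, the chaperone of RPL3, averaged 24.6 ± 1.62 FPKM in normal serum and 9.22 ± 0.606 FPKM in heat-inactivated serum (1.32, adjusted p = 1.98e-05). Its client RPL3 averaged 2200 ± 59.4 FPKM in normal serum and 2253 ± 83.6 FPKM in heat-inactivated serum and did not pass (-0.03, adjusted p = 0.651). LTV1, an assembly factor of the small subunit, averaged 45.2 ± 3.10 FPKM in normal serum and 23.9 ± 3.09 FPKM in heat-inactivated serum (0.90, adjusted p = 3.60e-04). IPO9, an import receptor, was called lower (-0.24, adjusted p = 0.0206).

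A further list held 22 translation and growth genes taken to have TOP mRNAs, whose transcript starts were not checked here. All 22 were tested, and 3 were called higher and 8 lower (50% in all, near the 54.0% over all genes, of which 27.8% higher and 26.1% lower). Their median was -0.09 and was below 0 under all 6 scalings. EEF2, the elongation factor that translocates the ribosome, averaged 1184 ± 12.1 FPKM in normal serum and 1604 ± 53.1 FPKM in heat-inactivated serum (-0.44, adjusted p = 5.08e-04). CCNG1, a cyclin that is also a p53 target, averaged 26.6 ± 4.64 FPKM in normal serum and 52.2 ± 2.39 FPKM in heat-inactivated serum (-0.96, adjusted p = 6.01e-04). HSPA8, a constitutive chaperone, averaged 1274 ± 127 FPKM in normal serum and 823 ± 50.8 FPKM in heat-inactivated serum (0.63, adjusted p = 8.30e-04). EEF1B2 rose by 0.33 as deposited (adjusted p = 0.0107) and was called under 3 of the 6 scalings.

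Of mTORC1 components and regulators of TOP mRNAs 22 were tested, 8 called higher and 4 lower (54.5% in all, near the 54.0% over all genes, of which 27.8% higher and 26.1% lower), with a median of 0.07 as deposited and -0.06 at equal total FPKM. MYC, a transcription factor that drives ribosome production, averaged 191 ± 8.19 FPKM in normal serum and 119 ± 3.79 FPKM in heat-inactivated serum (0.67, adjusted p = 1.04e-04). EIF4E, the cap-binding factor, averaged 80.3 ± 0.909 FPKM in normal serum and 55.7 ± 2.73 FPKM in heat-inactivated serum (0.52, adjusted p = 3.17e-04). LARP1 averaged 20.3 ± 2.11 FPKM in normal serum and 28.0 ± 0.654 FPKM in heat-inactivated serum (-0.45, adjusted p = 0.00323), and TSC2, an inhibitor of mTORC1, also fell (-0.36, adjusted p = 0.00181).

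Ribosome quality control and rescue factors had 21 tested, 7 called higher and 3 lower (47.6% in all, near the 54.0% over all genes, of which 27.8% higher and 26.1% lower), with a median of 0.04 as deposited and -0.10 at equal total FPKM. ABCE1, which splits ribosomes after termination, averaged 41.4 ± 0.787 FPKM in normal serum and 31.8 ± 1.42 FPKM in heat-inactivated serum (0.37, adjusted p = 0.00159). G3BP1, a stress granule protein that also acts on stalled small subunits, rose by 0.40 (adjusted p = 0.00198). EIF2AK4, the kinase GCN2 that senses stalled ribosomes and uncharged tRNA, averaged 15.5 ± 0.139 FPKM in normal serum and 29.1 ± 1.05 FPKM in heat-inactivated serum (-0.87, adjusted p = 3.72e-05). HUWE1, a ubiquitin ligase that degrades unassembled ribosomal proteins, fell by 0.43 (adjusted p = 0.00241).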

How the data were processed

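Polyadenylated RNA of 3 libraries per serum was prepared with an RNeasy kit and a TruSeq v2 kit, per the labels' protocols. TopHat2 2.0.7, Cufflinks 2.1.1 and Cuffdiff 2.1.1 are named in the submitters' processing notes, while for the genome build and annotation the sources used here state none. Values in the deposited table are FPKM for each transcript in each library, beside the authors' FPKM per treatment, log2 fold change, p-value, q-value and marks. Fragments of overlapping genes or near-identical copies were assigned by the authors' tools, and the use of strand is not stated.

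FPKM were summed per symbol, with 37.0% of transcripts at 0 in all libraries. Genes averaging 1 FPKM or more over the 6 libraries were tested on log2(FPKM + 1) by limma 3.58.1 under R 4.3.3 (trended empirical Bayes, two-sided, Benjamini-Hochberg over 11819 genes, called under 0.05), after the script was tested on simulated data. The added 1 makes log2 changes of low genes too small, so folds are given as ratios of group mean FPKM. Errors are the SD of 3 libraries. Placeholder identifiers were named from a gene-name table or the deposited descriptions, and no sequences are shown.

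Members and lists were chosen with earlier results of these data known. Genes named were all called members, the 3 highest and lowest by change and by level, stalk proteins, RPSA, RPL5, RPL11, paralogues with partners, members at 0, and the 2 called genes of each other list with the smallest adjusted p in each direction. RPS6, RPS27, the further placeholder identifiers and members beside the threshold were added after their values were seen. Ratios within a library were tested with exact permutation tests. Alternatives varied pseudocount, filter, scaling, variance model, transcripts and libraries. Values of a few members are not reported here, though sums and counts include them.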

Additional observations from a re-analysis of the deposited data

How the results depend on the processing

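As deposited, 9 members were called higher and 0 lower with a median log2 change of 0.0639. Pseudocount, a 5 FPKM minimum, median-ratio scaling, the highest transcript and leaving out transcripts under 300 bases gave 9 to 11 higher and 0 lower. Without a filter 5 were higher, and at an adjusted p under 0.01, 3. By non-overlap alone 19 were higher and 2 lower. At equal total FPKM 2 were higher and 1 lower (median -0.0807), and after quantile normalization 3 and 15 (median -0.0998). A robust variance gave 1 lower, RPL37, and without a variance trend 6 were higher. Leaving out 1 library gave 3 to 11 higher (4 and 3 without normal serum replicates 1 and 2, 4 and 5 without heat-inactivated serum replicates 2 and 3) and 0 to 1 lower (RPL37 or RPS25). RPS27L, RPL26L1 and RPL36 kept their calls in each of these, and each of the other 6 lost its call without at least 1 library. Replicates 2 and 3 alone gave 3 higher (RPS27L, RPL26L1 and RPL36) and 0 lower. Counted over all genes in either direction, 6381 were called as deposited and 5454 to 5868 with 1 library left out. That total was 6621 without a filter, 6464 with a robust variance and 6330 without a variance trend. For these fits its split by direction is not given here. Chosen after seeing the data were equal total FPKM of transcripts of 300 bases or more (2 higher, 18 lower, median -0.1084), removal of the length trend (3 and 4, median -0.0167), adding placeholder identifiers (10 and 1), and both combinations of the replicate block with a scaling. Reversed were RPS9 after quantile normalization (-0.0124) and RPL24 at equal total FPKM of longer transcripts (-0.0088, and -0.0088 also with a replicate block). The cause of these moves was not tested. RPS27L and RPL26L1 kept their calls under all 22 alternatives.

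The replicate numbers were not taken to pair libraries, since same-numbered libraries of the 2 groups had deviations correlated at 0.193, 0.0328 and 0.00689 over all genes, and replicates 2 and 3 correlated better with the other number. Over the 64 tested members the same-numbered correlations were -0.127, -0.760 and -0.876. Normal serum 2 with heat-inactivated serum 3 gave 0.906, and normal serum 3 with heat-inactivated serum 2 gave 0.926. These correlations compare the pattern of deviations from gene to gene, and a shift common to all members does not enter them. Differently numbered libraries thus shared a pattern, in which some members lay above and others below their group mean. The replicate block joins libraries whose patterns of member deviations were opposed. With a replicate block 9 members were higher and 1 lower (RPLP1 gained, RPS15 lost, RPL37 lower), beside 29.8% and 27.5% of all genes. Median-ratio scaling added gave 9 and 1 (29.3% and 28.2% of all genes), and equal total FPKM of longer transcripts added gave 3 and 27 (20.3% and 39.6% of all genes, median -0.1084). The count of all genes called kept within 1.5 times of 6381 throughout. The table gives no counts, so no counting interval was set on single values, and RPL39L, at 156 bases, was the tested member with the widest interval.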

Other observations

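RPS21 summed to overlapping levels, yet its second transcript, of 360 bases, had 559, 413 and 413 FPKM in normal serum and 112, 247 and 257 FPKM in heat-inactivated serum, higher in each normal serum library. The main RPS21 transcript, of 356 bases, had 3029, 2994 and 2793 FPKM in normal serum and 3276, 3084 and 2718 FPKM in heat-inactivated serum, which overlapped. In the authors' deposited table the second transcript had a log2 fold change of 1.17 and a q-value of 0.103. The identifier described as L10 had a second transcript of 754 bases at 0, 8.21 and 519 FPKM in normal serum and at 0, 454 and 549 FPKM in heat-inactivated serum, so libraries of 1 group differed more than the groups did. These transcripts were chosen after their values were seen, and no test was run on them. The split between transcripts of nearly equal length is the authors' estimate.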
